A study of Mus musculus with 2 samples.

Results

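Carbonic anhydrases are zinc enzymes that convert carbon dioxide and water into bicarbonate and a proton, and the reverse. The rows of 10 mouse family genes (Car1, Car2, Car3, Car4, Car5b, Car8, Car9, Car12, Car13 and Car14) were taken by gene symbol from the gene tables of both libraries, and all 10 were found among 43346 genes. The study sequenced total RNA longer than 200 nucleotides, 1 ng for each library, from G1E cells. These are an immortalised line of mouse erythroid progenitors, labelled C57BL/6J, male, postnatal and age 0 days. Their label is Gata1-, for loss of a transcription factor that drives red cell maturation. The labels give 1 group of 2 biological replicates and no untreated or Gata1-restored cells, so the text gives levels and sets replicate 2 against replicate 1.

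In red cells, cytosolic carbonic anhydrases hydrate the carbon dioxide that enters from tissues, the anion exchanger Slc4a1 carries the bicarbonate out, and the reverse takes place in the lung. Car2 is the fast cytosolic form found in many tissues, and Car1 is a slower cytosolic form that is abundant in mature red cells. Both are known as markers of the erythroid lineage. Other members work in mitochondria (Car5b), at the cell surface (Car4, Car9, Car12 and Car14), or have lost the enzyme activity (Car8).

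The coding sequences of the members are shown where they hold the zinc site, because it lets the 4 genes of the chromosome 3 cluster be compared with each other. In active forms the zinc ion is held by 3 histidines. Each stretch below is the coding strand from 5′ to 3′, taken from GENCODE M21 transcripts (GRCm38), with the 3 codons at the zinc positions in capitals. Each crosses 1 intron, and the coordinates span it. The Car2 stretch lies in exons 3 and 4 of Car2-201 at chr3:14895063-14895546 on the plus strand, with codons 94, 96 and 119 marked. The Car1 stretch lies in exons 4 and 5 of Car1-203 at chr3:14770892-14776295 on the minus strand, with codons 95, 97 and 120 marked. The Car3 stretch lies in exons 3 and 4 of Car3-201 at chr3:14866844-14868360 on the plus strand, with codons 94, 96 and 119 marked. The Car13 stretch lies in exons 3 and 4 of Car13-201 at chr3:14650700-14654895 on the plus strand, with codons 95, 97 and 120 marked.
Car2: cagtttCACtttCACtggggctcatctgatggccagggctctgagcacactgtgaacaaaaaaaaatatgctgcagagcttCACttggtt
Car1: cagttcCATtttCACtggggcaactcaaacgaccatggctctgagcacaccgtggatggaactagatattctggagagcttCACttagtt
Car3: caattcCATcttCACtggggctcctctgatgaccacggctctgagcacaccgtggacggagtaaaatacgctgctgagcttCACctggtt
Car13: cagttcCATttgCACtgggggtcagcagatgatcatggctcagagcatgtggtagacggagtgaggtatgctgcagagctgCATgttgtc
All 3 capitalised codons encode histidine in these 4 genes. The same held for Car4, Car5b, Car9, Car12 and Car14, whose sequences are not shown. The positions were located by a search that itself required histidine at the later sites, so only the 5′-most codon could have differed. These histidines therefore describe the stretches and are no test of the zinc site.

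Replicate 2 held 40597614 estimated counts and replicate 1 held 31649878. Nuclear protein-coding genes took 18.9% of them in replicate 2 and 26.9% in replicate 1. TPM, a level per transcript length scaled to a fixed sum, was 1.55-fold higher in replicate 1 for the median of 9161 detected genes. A gene was called detected from 1 TPM upward in both libraries. Means and SDs of TPM below include this shift. Gata1 itself had 12.5 TPM in replicate 2 and 21.96 TPM in replicate 1, and a gene-level value does not show whether its transcript can be translated. All 8 erythroid progenitor markers were detected, from Kit (115 and 175 TPM) to Epor (5.30 and 6.21 TPM). Of 24 markers of other cell types that use carbonic anhydrases, 19 had 0 counts in both libraries and 2 were detected, the mast cell protease Cpa3 (24.8 and 51.4 TPM) and the acid phosphatase Acp5 of osteoclasts (2.81 and 2.26 TPM). The other osteoclast markers Ctsk, Calcr and Ocstamp were at 0, as were Cma1 and Mcpt8 among the mast cell markers, whereas Tpsb2 had 0 counts in replicate 2 and 3 in replicate 1. In such bulk samples, fewer cells of a type and less RNA per cell cannot be told apart.

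Car2 and Car1 made up nearly all carbonic anhydrase transcripts of these cells. Car2 had 234 TPM in replicate 2 and 319.6 TPM in replicate 1 (277 ± 60.5 TPM, SD, n = 2), from 11133 and 11041 estimated counts. Its level lay at place 59 and place 66 among 21461 nuclear protein-coding genes. Car1 had 140.3 TPM in replicate 2 and 257 TPM in replicate 1 (199 ± 82.3 TPM, SD, n = 2), from 4334 and 5683 estimated counts, at place 100 and place 83. Together they held 98.9% of the summed TPM of the 10 members in replicate 2 and 99.0% in replicate 1 (98.9% ± 0.0805, SD, n = 2). Over all 16 carbonic anhydrase genes of the mouse measured here the share was 98.6% in replicate 2 and 98.8% in replicate 1.

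**Figure D1:**
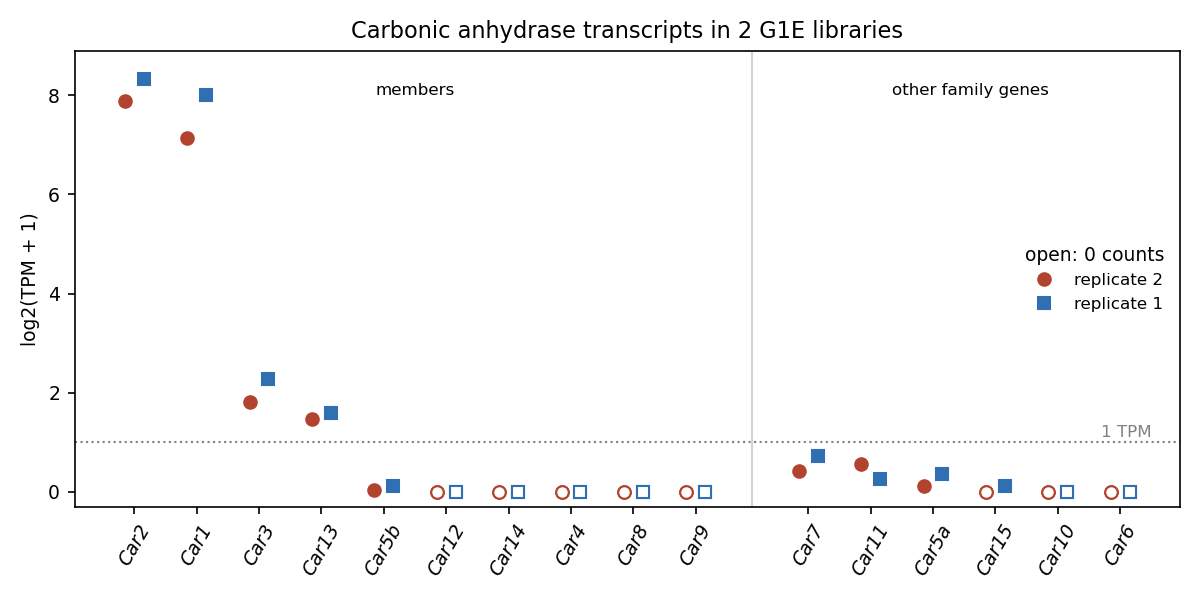
Level of each carbonic anhydrase gene as log2(TPM + 1) in replicate 2 (circles) and replicate 1 (squares), with open symbols for genes at 0 counts and a dotted line at 1 TPM. Car2 and Car1 lie far above the line, Car3 and Car13 just above it, and every other gene below it.

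The members with counts ranked Car2, Car1, Car3, Car13 and Car5b in both libraries, and only some of these neighbours were separated beyond the spread. Car2 was above Car1 in both libraries, by 1.67-fold in replicate 2 and by 1.24-fold in replicate 1. On the log2(TPM + 1) scale the difference was 0.73 in replicate 2 and 0.31 in replicate 1, with a mean of 0.52 ± 0.30 (SD, n = 2). Their deposited credibility intervals did not overlap within either library (for Car2 223.7 to 232.3 TPM and 303 to 315 TPM, for Car1 132 to 141 TPM and 240.02 to 258 TPM, in replicates 2 and 1). These intervals belong to the posterior mean estimate, and the maximum-likelihood TPM of Car2 lay above its interval. However, the TPM ranges of the pair over the libraries did overlap, so it was not separated beyond that spread. The spread includes the shift of TPM between the libraries, and the order of the pair was the same within each. Car1 stood apart from Car3 by 55.9-fold in replicate 2 and 66.5-fold in replicate 1. Car3 lay above Car13 by 1.41-fold and 1.90-fold, with intervals that overlapped in replicate 2. Car13 was separated from Car5b in both libraries, by 59.3-fold and 22.6-fold, where Car5b rested on few counts.

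Car2 (ENSMUSG00000027562.8, chromosome 3, 14886273 to 14900770, plus strand) came almost wholly from its full-length coding transcript. Car2-201 held 94.9% of the gene's TPM in replicate 2 and 95.03% in replicate 1 (94.9% ± 0.120, SD, n = 2). The short transcript Car2-203, which is annotated as retaining an intron, held 5.01% and 4.74%. Such shares are the authors' estimates from a model of annotated transcripts, and total RNA can hold unspliced molecules.

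Car1 (ENSMUSG00000027556.11, chromosome 3, 14766216 to 14808368, minus strand) was assigned mostly to its distal start. The mouse Car1 gene is known to have a pair of promoters, of which the upstream one is used in erythroid cells and the downstream one in colon. The annotation places these starts 29.9 kb apart, at 14808368 and 14778459. The 2 transcripts from the distal start, Car1-203 and Car1-202, held 96.7% of the gene's TPM in replicate 2 and 100% in replicate 1 (98.4% ± 2.33, SD, n = 2). Car1-203 alone had 132 and 245 TPM.

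The transcript from the proximal start, Car1-201, had 144 estimated counts in replicate 2 and 0 in replicate 1. Its deposited credibility intervals, 1.73 to 9.51 TPM in replicate 2 and 4.31e-05 to 6.80 TPM in replicate 1, overlapped, so the libraries were not separated for this transcript. Car1-201 and Car1-203 share their other exons. At the 5′ end they differ by 51 nucleotides that only the first exon of Car1-201 holds and 64 that only the first exon of Car1-203 holds, so the division rests on reads that reach those ends. The intestinal epithelium markers Cdh17, Krt20 and Cdx2 had 0 counts in both libraries, and Vil1 had 7 and 4 counts.

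**Figure D2:**
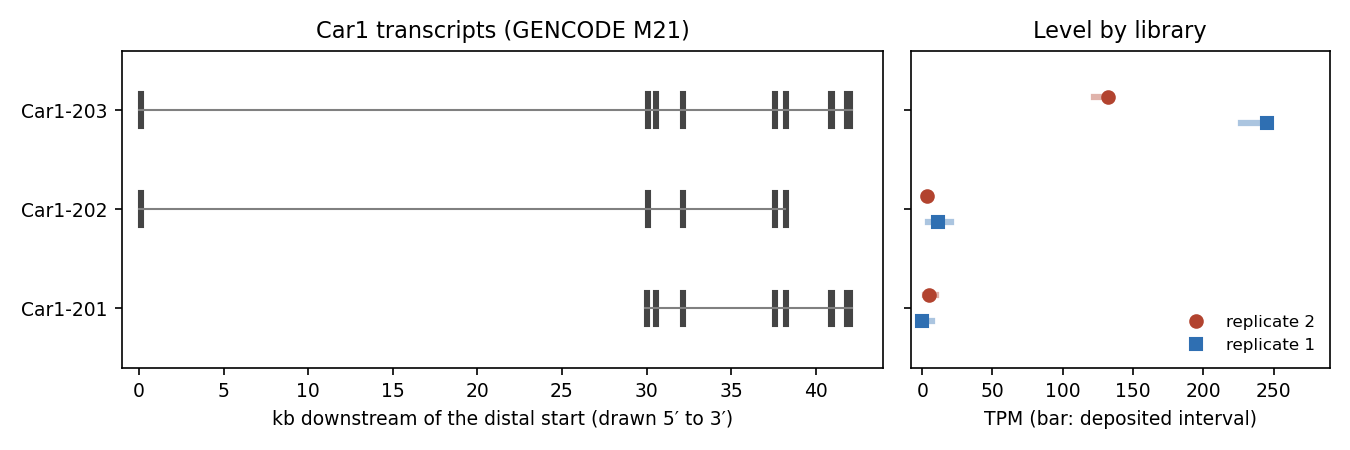
Exons of the 3 Car1 transcripts, drawn from 5′ to 3′ in kb from the distal start (left; the shortest exons are widened to be visible), and the TPM of each transcript in replicate 2 (circles) and replicate 1 (squares) with the deposited credibility interval as a bar (right). Car1-203, which starts at the distal exon, carries 132 and 245 TPM, while Car1-201 carries 4.63 and 0 TPM.

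The 4 detected members all lie in a stretch of 259 kb on chromosome 3 that holds Car13, Car1, Car3 and Car2 in this order. Levels within it were uneven, from 1.78 and 2.03 TPM for Car13 to 234 and 319.6 TPM for Car2. Car3, at 2.51 and 3.86 TPM, lies between the abundant Car1 and Car2. The coding sequences of these 4 genes were 61.4% to 64.8% identical over the 6 pairs, and the longest run of identical bases between any pair of their transcripts was 12 to 30 nucleotides. The deposited posterior SD of the count was 0 for Car2, Car3 and Car13 in both libraries, and 0.340 and 0.480 counts for Car1.

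Among the 15 other annotated genes within 300 kb of the cluster, 9 had 0 counts in both libraries, as did 28652 of all 43346 genes. These 9 were the protein-coding gene Slc7a12, the pseudogenes Gm6300, Gm37358, Gm8955, Gm8957, Gm38151 and Gm7132, and the long non-coding RNA genes A930001A20Rik and Gm33819. Of the 15, 4 were detected, 3 of them on the Car13 side. Among those 3, 1810022K09Rik had 34.5 TPM in replicate 2 and 63.6 TPM in replicate 1, Lrrcc1, a centrosome gene, had 8.16 and 13.9 TPM, and E2f5, a cell cycle transcription factor, had 1.73 and 3.86 TPM. The pseudogenes inside the stretch had few counts. Gm5843 had 2.07 and 5.17 estimated counts. Gm16399, the other detected gene at 2.44 and 4.87 TPM, had 7 and 11 counts and lies in an intron of Car1 on the same strand, so its reads cannot be told apart from unspliced Car1 RNA. Gm17119, with 0 and 21.7 estimated counts, was called higher in replicate 1, but it lies within Lrrcc1 on the same strand and its counts are uncertain.

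**Figure D3:**
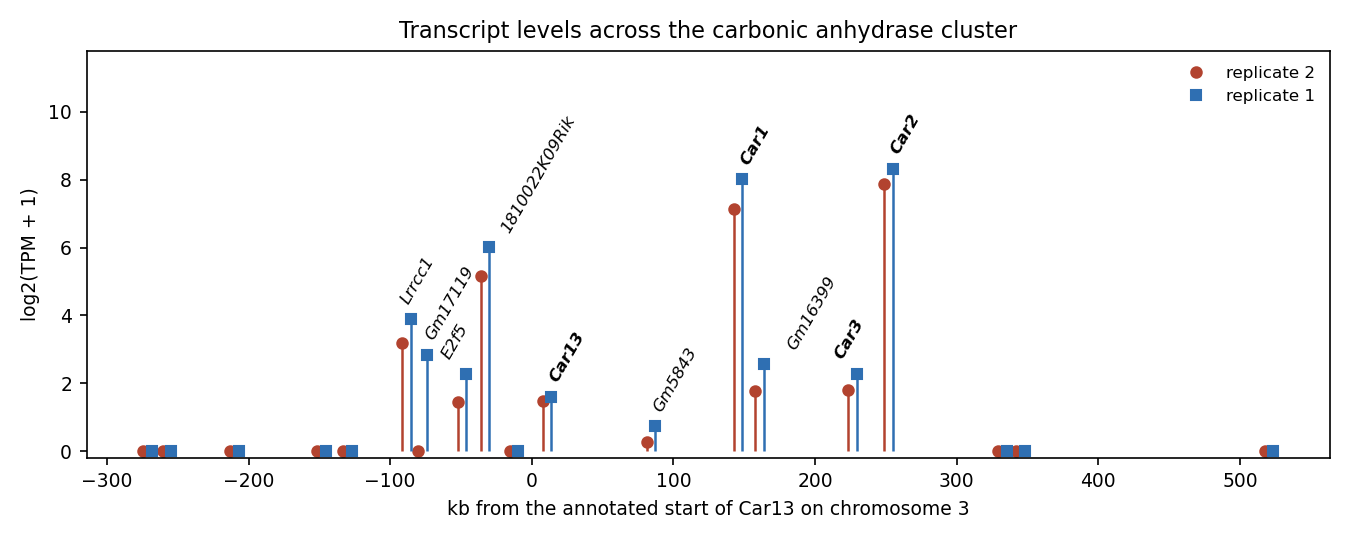
Level of each annotated gene, as log2(TPM + 1), at its midpoint in kb from the start of Car13 on chromosome 3, in replicate 2 (circles) and replicate 1 (squares). Car1 and Car2 stand highest, with Car3 between them at 2.51 and 3.86 TPM, and no gene on the far side of Car2 has a count.

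The low cytosolic members were detected in both libraries. Car3 (ENSMUSG00000027559.5, chromosome 3, 14863512 to 14872523), a form of low activity known from muscle and fat, had 102 and 128 counts and a mean of 3.19 ± 0.955 TPM (SD, n = 2). Its full-length transcript Car3-201 held 80.4% of its TPM in replicate 2 and 100% in replicate 1, with the rest on the retained-intron transcript Car3-203. Car3-203 had only 9.84 estimated counts in replicate 2 and 0 in replicate 1. Its deposited credibility intervals, 9.77e-06 to 1.42 TPM and 5.86e-07 to 0.918 TPM, overlapped, so the libraries were not separated for Car3-203. The muscle and fat markers Ckm, Acta1 and Adipoq had 0 counts in both libraries, and Fabp4 had 2 and 3 counts. Car13 (ENSMUSG00000027555.8, chromosome 3, 14641727 to 14663002), another cytosolic enzyme, had 114 and 94 counts and a mean of 1.91 ± 0.177 TPM (SD, n = 2), all on its single annotated transcript.

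The mitochondrial and surface members were at or near 0. Car5b (ENSMUSG00000031373.4, chromosome X), which supplies bicarbonate inside mitochondria, had 3 and 6 counts, or 0.0300 and 0.0900 TPM. The surface enzymes Car4 (chromosome 11), Car9 (chromosome 4), Car12 (chromosome 9) and Car14 (chromosome 3, outside the cluster), together with the inactive Car8 (chromosome 4), had 0 counts in both libraries. A count of 0, taken as fewer than 3 counts, allowed up to 0.0274 to 0.184 TPM in replicate 2 and 0.0378 to 0.250 TPM in replicate 1, depending on the length of the gene. The lowest of these limits belongs to Car8 and the highest to Car4. These limits cover counting error only. The highest upper bound of a deposited credibility interval among these 5 members was that of Car9, at 1.13 TPM in replicate 2 and 1.49 TPM in replicate 1. The neuron markers Calb1, Pcp2, Rbfox3 and Snap25 and the kidney and stomach markers Umod, Slc12a1, Atp4a and Gkn1 were also at 0 in both libraries.

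None of the 6 other family genes was detected. Car7, a cytosolic form known from brain, had 0.340 TPM in replicate 2 and 0.640 TPM in replicate 1, and Car11, an inactive relative, had 0.470 and 0.190 TPM. The mitochondrial Car5a had 3 and 7 counts, Car15 had 0 and 2.35 estimated counts, and the secreted Car6 and the inactive relative Car10 had 0. Ptprg and Ptprz1, receptor phosphatases with an outer domain like a carbonic anhydrase, also had 0 counts in both libraries.

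Between the libraries, no member was called different. Scaled counts were compared gene by gene in a two-sided exact binomial test. A call needed a ratio of 2-fold or more and a p, adjusted by Benjamini-Hochberg, below 0.05. It called 0 of the 4 members tested, where 5.08% of 11902 genes were called higher in replicate 2 and 2.22% higher in replicate 1. Of the 4, 3 had an unadjusted p under 0.05, as did 41.4% of all tested genes. EdgeR's negative binomial test called 0 of the 4, beside 296 of all 11902 tested genes. Car5b and the 5 members at 0 had too few counts for the test. The exact binomial test covers counting error in this pair of libraries and has no replicate check. The spread in the negative binomial test was estimated from these same 2 libraries taken as 1 group. The difference under test thus adds to that spread, so a lack of calls by it is no separate support.

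Car2 and Car1 departed from a ratio of 1 in opposite directions, each by less than the 2-fold limit. Car2 had a ratio of replicate 2 over replicate 1 of 1.13 (95% interval 1.101 to 1.16, exact binomial adjusted p = 3.3e-18), and Car1 one of 0.855 (0.821 to 0.889, exact binomial adjusted p = 1.8e-13). With no fold limit, 17.2% of tested genes passed as higher in replicate 2 and 15.2% as higher in replicate 1, so such departures were common. Scaling to total counts shifts every gene alike and put the median of all tested genes at -0.52 on the log2 scale, with Car2 at -0.35 and Car1 at -0.75. Car13 had a ratio of 1.36 (1.03 to 1.81, exact binomial adjusted p = 0.084) and Car3 one of 0.893 (0.682 to 1.17, exact binomial adjusted p = 0.59), and neither passed. Under total counts the log2 ratio of Car13 was -0.081, with the same shift of the median. The median log2 ratio over the 4 tested members was 0.01, beside 0.00 over all tested genes.

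The carriers that move bicarbonate across the membrane were mostly at 0 or low. Of 14 bicarbonate carriers, 3 were detected and 8 had 0 counts in both libraries. Among 6 tested, 1 was called higher in replicate 2, beside 5.08% of all tested genes. That gene was Slc4a1, the anion exchanger of red cells, with 79.9 TPM in replicate 2 and 1.22 TPM in replicate 1. Its ratio was 101 (84.2 to 123). The negative binomial test also called 1 of the 6, beside 296 of all 11902 tested genes. Slc4a2, a relative of Slc4a1 and an anion exchanger of many cell types, had 3.19 and 8.29 TPM and a ratio of 0.802 (0.651 to 0.986). The sodium bicarbonate carrier Slc4a7 had 3.75 and 6.04 TPM and a ratio of 0.963 (0.875 to 1.06). In both libraries the TPM of Slc4a1 lay below that of Car2 and of Car1.

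Among 5 listed genes of water channels or Rhesus family proteins, 3 were tested. Aqp1 and Rhd were called higher in replicate 2, beside 5.08% of all tested genes. Rhag, a Rhesus-associated membrane protein, had 86.5 TPM in replicate 2 and 132 TPM in replicate 1, with a ratio of 1.02 (0.981 to 1.05). Aqp1, a water channel of red cells, had 496 counts in replicate 2 and 1 count in replicate 1. Its ratio was 556, with an interval of 99.3 to 22002. Rhd had 382 and 20 counts, a ratio of 21.4 (13.7 to 35.4). The negative binomial test also called 2 of these genes, beside 296 of all 11902 tested genes. Rhbg and Rhcg had 0 counts in both libraries. The nuclear protein-coding share of the counts was also lower in replicate 2, and its part in these ratios was not tested.

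Of 9 proton and lactate carriers, 2 were detected. Among 5 tested, 1 was called higher in replicate 2, beside 5.08% of all tested genes. Bsg, the partner chain of lactate carriers, had 112 and 155 TPM and a ratio of 1.104 (1.05 to 1.16). The lactate carrier Slc16a1 had 10.1 TPM in replicate 2 and 6.70 TPM in replicate 1 and was called, at 2.33-fold higher in replicate 2 (2.11 to 2.57). By edgeR's negative binomial test, 0 of these carriers were called, beside 296 of all 11902 tested genes. The spread in that test was estimated from these same 2 libraries taken as 1 group.

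**Figure D4:**
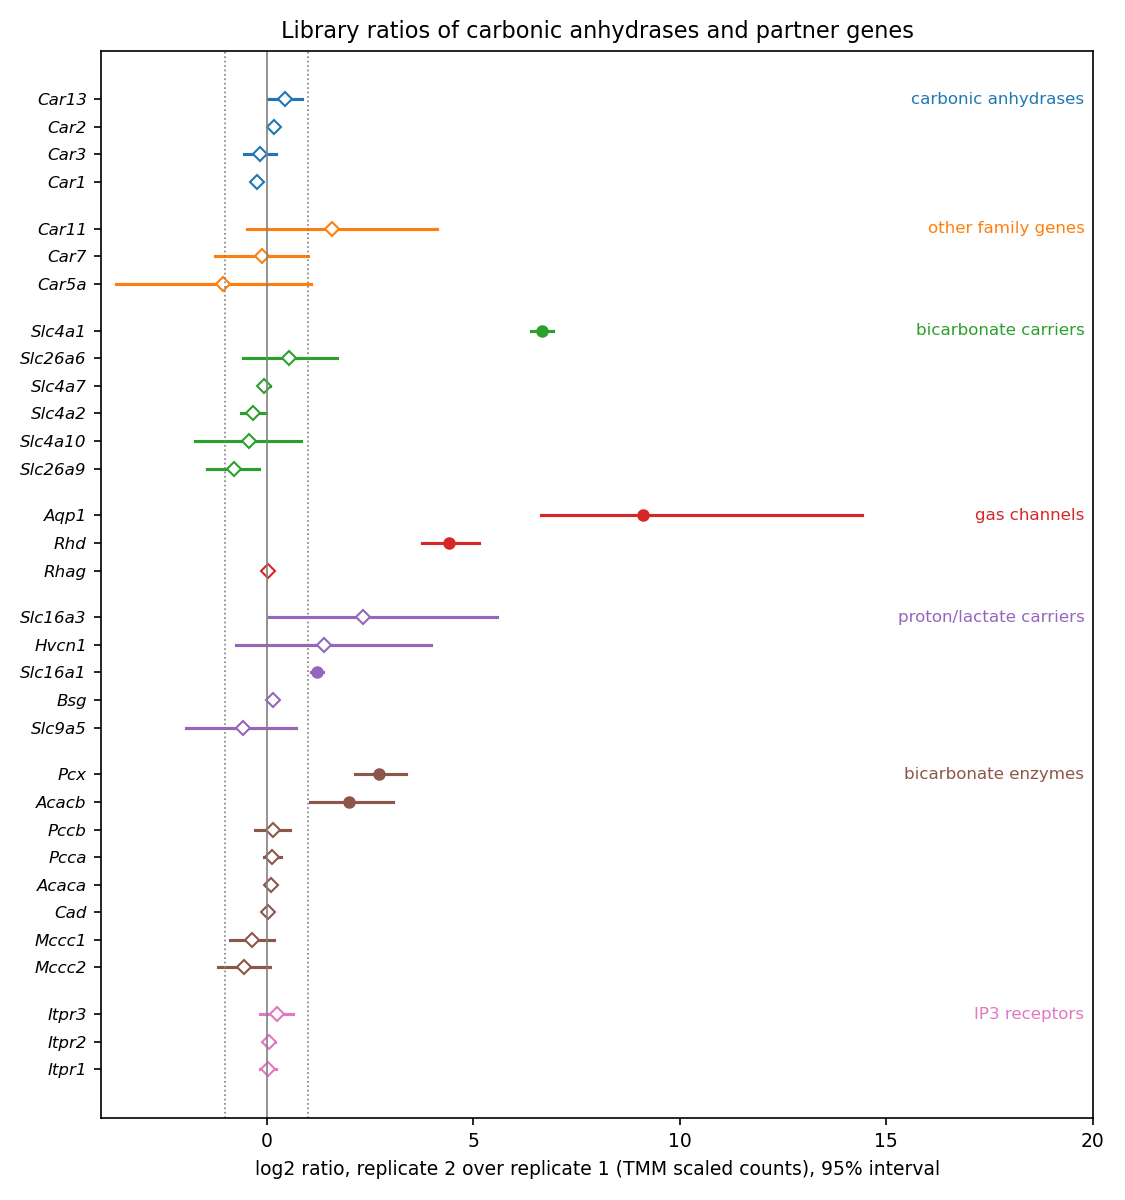
Log2 ratio of replicate 2 over replicate 1 with its exact 95% interval for each tested carbonic anhydrase and partner gene outside the hypoxia list, with dotted lines at the 2-fold limit, filled circles for called genes and open diamonds for the rest. Car13, Car2, Car3 and Car1 all lie within the dotted lines, while Slc4a1, Aqp1 and Rhd lie far to the right.

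Of 9 enzymes that use bicarbonate, 4 were detected, led by Cad, which starts pyrimidine synthesis (10.9 and 20.97 TPM), the propionyl-CoA carboxylase subunit Pcca (8.95 and 16.6 TPM) and Acaca, which starts fatty acid synthesis (5.03 and 7.75 TPM). Where 5.08% of all tested genes were called higher in replicate 2, the test called 2 of these 8, both higher in replicate 2. They were Pcx, the mitochondrial pyruvate carboxylase, with 159 and 27 counts and a ratio of 6.60 (4.37 to 10.3), and Acacb, with 43 and 12 counts and a ratio of 4.02 (2.08 to 8.37). The negative binomial test called 1 of the 8, beside 296 of all 11902 tested genes. The mitochondrial enzymes Car5b and Car5a, which are known to serve pyruvate carboxylase in other tissues, had 3 to 7 counts a library. Cps1, of the urea cycle, had 0 counts.

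The inositol trisphosphate receptors, calcium channels of which Itpr1 is known to bind Car8 in Purkinje cells, were listed beside Car8, and 2 of the 3 were detected. Itpr2 had 4.79 and 8.29 TPM, Itpr1 1.39 and 2.11 TPM, and Itpr3 0.430 and 0.570 TPM. The test called 0 of these 3, beside 5.08% of all tested genes higher in replicate 2 and 2.22% higher in replicate 1. Of the 3, 0 had an unadjusted p under 0.05, beside 41.4% of all tested genes. EdgeR's negative binomial test called 0 of the 3, beside 296 of all 11902 tested genes.

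Car9 and Car12 are known targets of the hypoxia-inducible factors (HIF), and both were at 0 while other listed HIF genes and targets were detected. The design holds no comparison of oxygen levels, so a response to hypoxia was not tested. Of 21461 nuclear protein-coding genes 8345 were detected, and of 16 HIF genes and targets 12 were. The glycolytic enzymes Ldha (297 TPM in replicate 2 and 428 TPM in replicate 1) and Pgk1 (99.1 and 136 TPM) and the mitophagy receptor Bnip3 (44.5 and 57.2 TPM) were highest. Hif1a, the oxygen-regulated subunit, had 16.02 and 21.4 TPM, and Vegfa, a secreted growth factor, had 14.2 and 30.2 TPM. Egln3, Adm and Epas1 had 0 counts in both libraries, as Car9 and Car12 did. The test called 0 of 12, beside 5.08% of all tested genes higher in replicate 2 and 2.22% higher in replicate 1. Of the 12, 7 had an unadjusted p under 0.05 beside 41.4% of all tested genes. EdgeR's negative binomial test called 0 of the 12, beside 296 of all 11902 tested genes.

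Genes with levels closest to those of the leading members are given for comparison. By distance on log2(TPM + 1) over the 2 libraries, the nearest to Car2 were the ribosomal protein genes Rpl36 (distance 0.05) and Rpl23a (0.08) and the elongation factor Eef2 (0.07). The nearest to Car1 were the histone gene Hist1h3c (0.04), the actin-binding protein gene Tagln2 (0.06) and the nuclear pore gene Tpr (0.07). Rpl36 had 234 and 332 TPM, and Tagln2 had 143 and 247 TPM. With 2 libraries, such a likeness describes a level and its shift between the libraries only.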

How the data were processed

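Total RNA of 2 G1E libraries was analysed from 1 gene table and 1 transcript table for each. Both tables hold unnormalised estimated counts, TPM and FPKM deposited by the authors, per the file headers. TPM comes in a maximum-likelihood version and as the posterior mean. Per the file headers, the deposited isoform share is a percent of the gene's TPM, and the other deposited columns used are lengths, credibility bounds of TPM and the posterior SD of the count. The deposited file records name mm10 and GENCODE M4. Aligner and quantifier are both not given in the sources used here.

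Names and positions came from GENCODE M21 (GRCm38), matched on identifiers without version (42462 of 43346). The 97 spike-in entries and 26248 entries named by a number stayed out of tests. Estimated counts were rounded and compared by a two-sided exact binomial test against TMM effective library sizes (edgeR 4.0.16, R 4.3.3; TMM over genes with at least 10 counts), adjusted by Benjamini-Hochberg over all 11902 genes whose counts summed to 10 or more. The 95% intervals of the ratios are exact (Clopper-Pearson). The test was checked on simulated data that held counting error only, so the check does not cover other spread between the libraries. Neighbours in level were called separate where their TPM ranges and, in each library, their credibility intervals did not overlap. Coding sequences were aligned globally with Biopython 1.88 (Python 3.11.15, SciPy 1.17.1). Protein sequences were not used here. A carrier gene that the naming rule selects and the zinc site of 1 member are not reported here.

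Depth was 40597614 and 31649878 estimated counts in replicates 2 and 1, so 3 counts correspond to 0.0739 and 0.0948 CPM. The intervals of ratios and the limits at 0 counts cover counting error only, and the deposited credibility intervals are the authors'.

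The members and the lists (other family genes, carriers, channels, bicarbonate enzymes, inositol trisphosphate receptors, hypoxia genes and cell type markers) were chosen with earlier results of these data known. Named were all members and other family genes, the 3 highest of each list of partner genes and those called, genes within 300 kb of the cluster, and the 3 genes nearest in level to each of the 2 leading members. Gata1 and the cell type markers were given as checks of the labels. Vegfa, Hif1a, Rhbg, Rhcg, Cps1, Egln3, Adm and Epas1 were named besides, after their values were seen. Alternatives were DESeq2 1.42.0 size factors, total counts, spike-ins, other filters and fold limits, a negative binomial test, other estimates, and leaving out each library. The negative binomial test used a common spread (biological coefficient of variation 26.2%), estimated from both libraries as 1 group.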

Additional observations from a re-analysis of the deposited data

How the results depend on the processing

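The 4 detected members were also 4 by posterior mean TPM, FPKM, CPM and a limit of 0.5 TPM, and 3 at 2 TPM, where Car13 was lost. The order of the 5 members with counts was the same by each of these estimates over both libraries, and by TPM in each library alone. By estimated counts in replicate 2 alone, Car13 (114) lay above Car3 (102). The log2 difference of Car2 over Car1 was 0.52 to 0.53 with another pseudocount or estimate, and 0.31 to 0.73 with 1 library left out. The share of Car1-203 was 93.8% from posterior mean TPM, against 94.9% ± 0.849 from TPM (SD, n = 2). Without a fold limit the calls among members were 1 higher in replicate 2 (Car2) and 1 in replicate 1 (Car1). Scaled to spike-ins, 0 and 4 members were called, with the median of all genes at -4.49 and log2 ratios of -4.32 for Car2 and -4.05 for Car13, and scaled to total counts these were -0.35 and -0.081. How much spike-in went into each library was not stated in the labels, so that scaling cannot be read as RNA content.

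Over all genes, the calls of 605 higher in replicate 2 and 264 in replicate 1 were 396 and 1021 with total counts, 36 and 11608 with spike-ins, 356 and 84 with a filter of 50 counts, 2045 and 1807 without a fold limit, and 263 and 33 with the negative binomial test. The library comparison needs both libraries, so it was not run with 1 left out. No paired analysis was possible because the labels give 1 group. The main transcript shares with 1 library left out were 94.86 to 95.03% for Car2-201, 94.32 to 95.52% for Car1-203, 80.39 to 100% for Car3-201 and 96.71 to 100% for the distal start of Car1. Car5b, Car1-201 and Car3-203 rest on too few or too uncertain counts to separate the libraries.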
